A study of Homo sapiens with 2 samples.

Results

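Promoters whose measured CpGs lie outside CpG islands, outside the shores that flank the islands and outside the shelves beyond the shores are described here in SH-SY5Y cells exposed to Mdivi-1 or to the solvent DMSO. A promoter was a gene and chromosome with at least 3 autosomal promoter CpGs that the authors' annotation placed in none of these classes and that had at least 10 reads in both libraries. The rule found 9131 promoters of the 25082 autosomal promoters with 3 such CpGs of any class, and whole reads could be recovered for 9124 of them. The rule reads annotation and coverage and no methylation value. SH-SY5Y, an established line, comes from a human neuroblastoma, a tumour of the sympathetic lineage. Mdivi-1 is applied to cells as a blocker of mitochondrial division. Bisulfite-converted DNA was sequenced after capture of methylation target regions, in 1 Mdivi-1 library and 1 DMSO library, called the control below. The labels give neither dose nor duration of exposure. With 1 library per group no difference has a replicate check, and the errors below cover the counting of reads alone, which may share a PCR origin.

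Methylation of the cytosine in a CpG is read after bisulfite treatment, which converts unmethylated cytosines and spares methylated ones. CpG islands are dense in CpGs, mostly unmethylated, and found at the promoters of widely used genes. Promoters outside them hold few CpGs, more often carry a TATA box, serve many tissue-specific genes and can be methylated or unmethylated.

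Sequences from RefSeq (GRCh38.p14) show how few CpGs such promoters hold and where the levels reported below were measured. Each run is the 250 bases before a transcription start, written 5′ to 3′ on the gene's strand, with the measured CpGs in capitals. The deposited positions are on hg19, so CpGs were assigned to the sequence by the spacing between them and not by coordinate. POU5F2, a POU-domain transcription factor gene, lies at chr5:93741601-93741850 on the minus strand, and XIRP2-AS1, an antisense RNA gene, at chr2:167140956-167141205 on the minus strand. ZNF735, a zinc finger gene, lies at chr7:64206953-64207202 on the plus strand. GFI1B, a repressor needed for red cell and platelet precursors, lies at chr9:132978444-132978693 on the plus strand. These 4 are shown because their level was at least 10 points higher in the Mdivi-1 library. LDLRAD4, a membrane protein that restrains TGF-beta signalling, lies at chr18:13611214-13611463 on the plus strand and is shown because its level was lower. DBH, the enzyme that makes noradrenaline, lies at chr9:133636113-133636362 on the plus strand, and RANBP6, an importin relative, at chr9:6015625-6015874 on the minus strand. Both are shown because they were nearly free of methylation.
POU5F2: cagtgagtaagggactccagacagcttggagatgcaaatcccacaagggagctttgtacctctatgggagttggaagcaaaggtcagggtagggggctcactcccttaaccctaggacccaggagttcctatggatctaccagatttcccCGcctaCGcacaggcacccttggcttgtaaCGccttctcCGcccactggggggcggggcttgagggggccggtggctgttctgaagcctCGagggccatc
XIRP2-AS1: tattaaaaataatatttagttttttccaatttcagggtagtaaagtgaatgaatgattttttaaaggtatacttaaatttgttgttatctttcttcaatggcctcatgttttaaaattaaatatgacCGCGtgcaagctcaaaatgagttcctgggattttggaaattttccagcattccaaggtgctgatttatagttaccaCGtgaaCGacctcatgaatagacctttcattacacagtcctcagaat
ZNF735: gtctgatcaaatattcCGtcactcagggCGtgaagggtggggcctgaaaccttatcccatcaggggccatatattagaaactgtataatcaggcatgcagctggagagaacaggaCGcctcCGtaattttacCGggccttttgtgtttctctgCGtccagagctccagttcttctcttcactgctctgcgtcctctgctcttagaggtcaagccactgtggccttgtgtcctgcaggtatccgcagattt
GFI1B: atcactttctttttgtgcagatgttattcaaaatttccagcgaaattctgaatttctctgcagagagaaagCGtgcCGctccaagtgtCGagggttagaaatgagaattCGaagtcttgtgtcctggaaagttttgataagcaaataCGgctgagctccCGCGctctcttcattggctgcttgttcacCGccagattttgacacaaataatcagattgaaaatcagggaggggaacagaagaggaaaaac
LDLRAD4: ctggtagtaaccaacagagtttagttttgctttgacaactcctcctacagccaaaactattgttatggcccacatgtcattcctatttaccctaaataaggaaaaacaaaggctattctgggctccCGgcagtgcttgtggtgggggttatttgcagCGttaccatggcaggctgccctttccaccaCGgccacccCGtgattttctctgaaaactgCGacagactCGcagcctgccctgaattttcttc
DBH: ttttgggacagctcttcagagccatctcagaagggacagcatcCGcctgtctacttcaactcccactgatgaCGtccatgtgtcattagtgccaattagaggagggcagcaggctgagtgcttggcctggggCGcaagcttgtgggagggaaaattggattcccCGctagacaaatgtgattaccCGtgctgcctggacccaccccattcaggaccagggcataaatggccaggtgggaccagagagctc
RANBP6: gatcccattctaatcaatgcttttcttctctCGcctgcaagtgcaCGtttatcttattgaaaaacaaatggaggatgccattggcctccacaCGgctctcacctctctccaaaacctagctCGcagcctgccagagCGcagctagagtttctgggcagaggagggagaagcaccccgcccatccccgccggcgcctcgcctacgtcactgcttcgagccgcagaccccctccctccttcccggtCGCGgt

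The printed stretch of XIRP2-AS1 held 4 CpGs and that of DBH 5, all of them measured, whereas the RANBP6 stretch held 16, of which 7 were measured outside an island. RANBP6 is thus dense in CpGs near its start although these 7 CpGs carry no island, shore or shelf mark. In POU5F2 the CpG 94 bases before the start was methylated in 95.5% of 22 Mdivi-1 reads (95% Wilson interval 78.2 to 99.2) and 63.2% of 19 control reads (41.0 to 80.9). The CpGs on either side of it, 100 and 70 bases before the start, both stood at 88.9% in the Mdivi-1 library. In the control they stood at 68.2 and 58.3%. The CpG 61 bases before the start stood at 90% in both libraries, of 20 Mdivi-1 and 10 control reads. At each printed CpG of POU5F2 the intervals of the libraries overlap, and its CpGs lie close enough to share reads. In ZNF735 the CpG 222 bases before the start had no methylated read among 22 in either library, with an upper Wilson limit of 14.9%. The CpG 97 bases before its start stood at 41.2% of 17 Mdivi-1 reads and 13.3% of 15 control reads. XIRP2-AS1 showed a step within its promoter in both libraries. Its distal CpG, 123 bases before the start, stood at 87.5% of 24 Mdivi-1 reads and 71.4% of 14 control reads, and its proximal CpG, 41 bases before the start, at 40.5% of 37 and 23.1% of 26.

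GFI1B carried methylated CpGs between nearly unmethylated ones. The CpGs 179, 174 and 62 bases before the start stood between 0.00 and 9.76% in the Mdivi-1 library and between 0.00 and 5.88% in the control. Of the 5 CpGs between them, the lowest stood at 35.5% and the highest at 57.1% in the Mdivi-1 library, against 17.4 and 38.5% in the control. The CpG 141 bases before the start had the intervals 35.9 to 66.6% in the Mdivi-1 library and 12.5 to 46.5% in the control, which overlap. Among the printed CpGs of LDLRAD4 the largest gap was at 54 bases before the start, with 23.3% of 30 Mdivi-1 reads and 42.3% of 26 control reads. DBH, by contrast, had no CpG above 4.0% in the Mdivi-1 library and no methylated read in the control at its 5 printed CpGs, at 24 to 31 reads in the control.

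**Figure D1:**
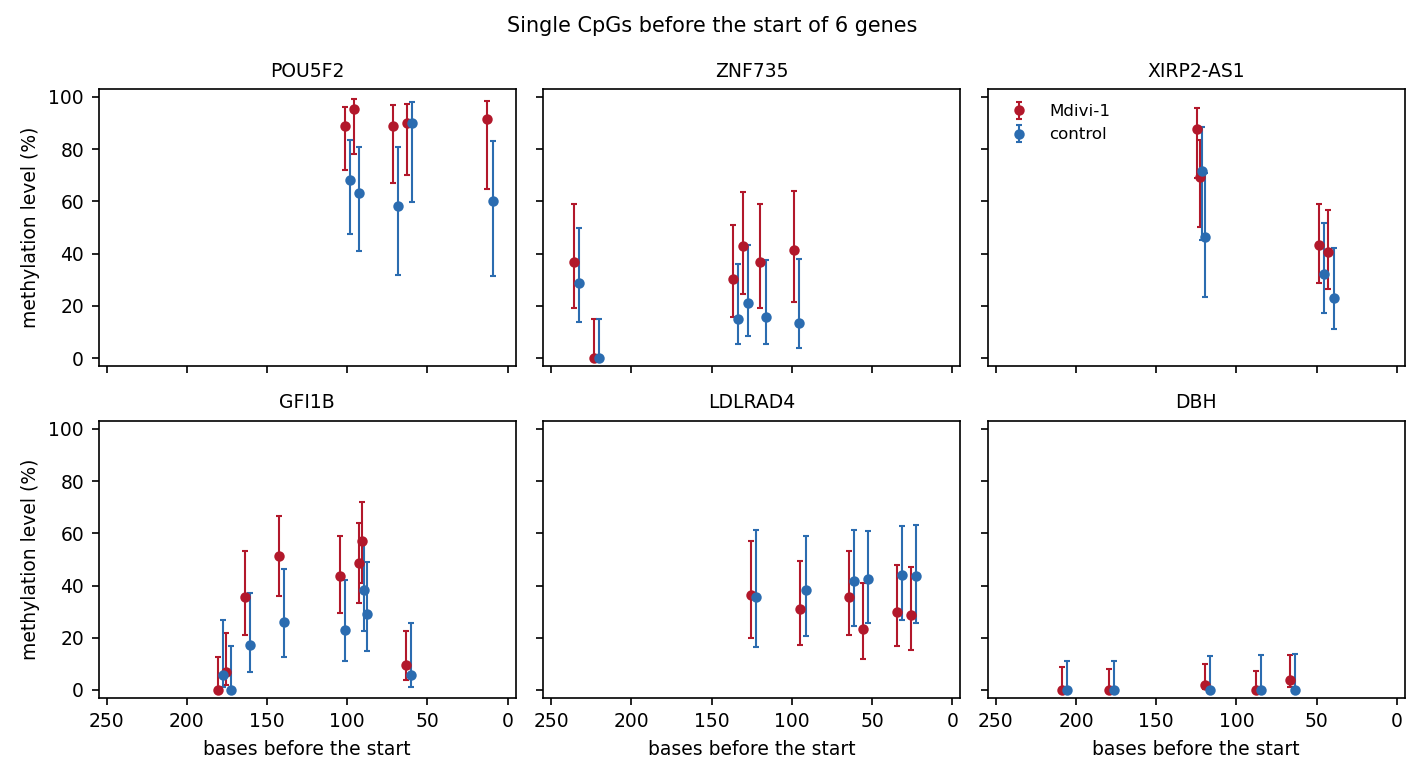
Methylation level (%) of each measured CpG against its distance in bases before the transcription start, for 6 genes, with Mdivi-1 in red and control in blue and bars giving 95% Wilson intervals, which cover the counting of reads alone. The points of the libraries are set slightly apart for legibility. GFI1B has its 3 lowest CpGs at its outer positions in both libraries, and DBH stays at or below 4.0% in the Mdivi-1 library.

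Across the 9124 measured promoters the mean level was 45.1% in the Mdivi-1 library and 44.5% in the control, and the median was 37.5 and 37%. Levels gathered at both ends of the scale. Under 5% stood 1572 promoters in the Mdivi-1 library and 1565 in the control, and 1153 and 1131 stood from 90 to under 95%, while no bin of 5 points between 40 and 80% held more than 263. Taking the mean of both libraries, 3155 promoters were low (under 20%), which is 34.6% (95% exact interval 33.6 to 35.6). Another 3484 were intermediate (38.2%, 37.2 to 39.2) and 2485 were high, at 80% or more (27.2%, 26.3 to 28.2). Grouped by each library alone, 8765 promoters fell in the same class in both, and 0 were low in one library and high in the other. A promoter held a median of 8 CpGs and at most 92, over a median span of 797 bases. Of the variance of single CpG levels, 68.1% in the Mdivi-1 library and 67.9% in the control lay between promoters and the rest within them. Mean coverage of the 96351 member CpGs was 55.7 reads in the Mdivi-1 library and 44.3 in the control. CpGs claimed by more than 1 gene made up 4.11% of them, and 119 promoters shared their whole set of CpGs with another gene.

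**Figure D2:**
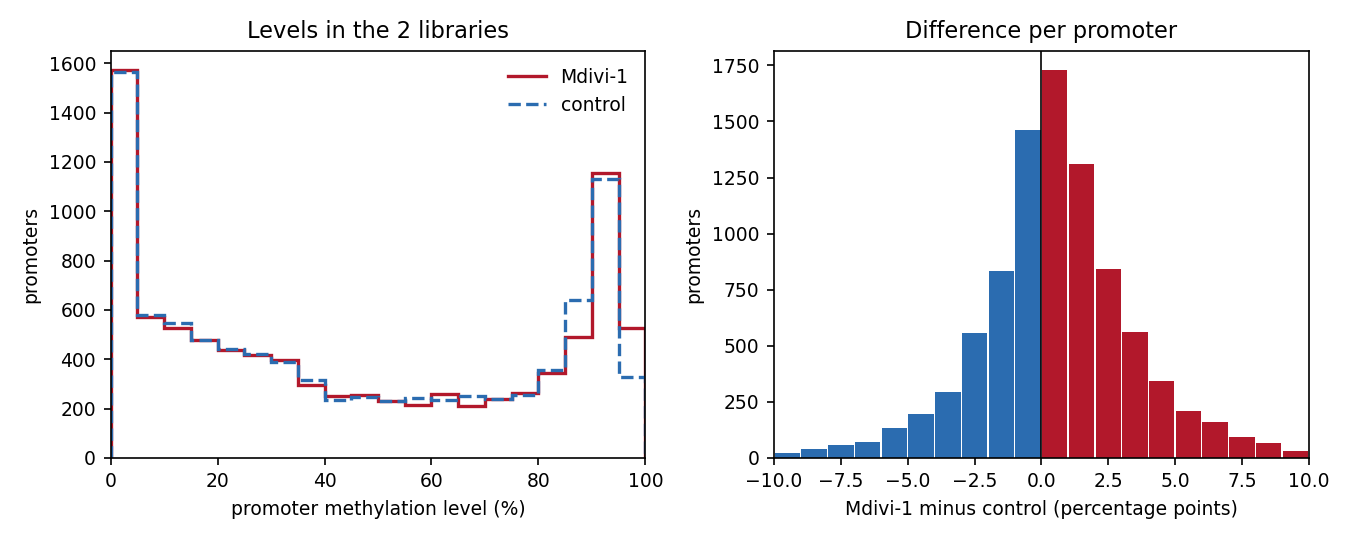
Left, number of promoters per 5-point bin of methylation level (%) in the Mdivi-1 library (red) and the control (dashed blue); right, number of promoters per 1-point bin of the difference, Mdivi-1 minus control, with 114 promoters beyond 10 points not drawn. The first bin holds 1572 promoters in the Mdivi-1 library and 1565 in the control, and the tallest bar on the right, 1729 promoters, lies just above 0.

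The sequences of these promoters were poor in CpGs, as their class name says. Among 3255 members with a single RefSeq window of 300 bases, 250 before to 50 after the start, the median window held 4 CpGs and a GC content of 50%, against 12 CpGs and 57.7% over the 21269 autosomal windows of the table. The ratio of observed to expected CpGs had a median of 0.248 in the members and 0.531 in all windows. Windows with at least 50% GC and a ratio of at least 0.6 made up 9.98% of the members and 45.3% of all windows, so 325 members go against their class by this measure of the sequence at the start. The letters TATAAA, read on both strands, occurred in 19.8% of member windows and 12.8% of all windows. Among low members the share was 22.9%, among intermediate ones 16.6% and among high ones 19.6%. CCAAT occurred in 38.3% of member windows and 35.9% of all windows. CACGTG, which holds a CpG, was found in 5.10 and 7.20%, and TGACGTCA, which holds one too, in 1.08 and 2.02%. None of these motifs contains another. Among members with no island, shore or shelf CpG at all, the median level with TATAAA was 21.8% in the Mdivi-1 library and 21.5% in the control, with 48.2% of 629 promoters low. Without it the medians were 28.2 and 27.7%, with 41.2% of 2425 promoters low.

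Among members that could be placed on their RefSeq window, levels were lower near the transcription start. Placement needs at least 4 measured CpGs on the window, so members with fewer there are left out. The spacing of CpGs placed 1584 of the 4515 members tried on their RefSeq window, and neighbouring genes gave the same shift between builds in 136 of 143 pairs. From 1000 to 900 bases before the start the mean CpG level was 42.7% in the Mdivi-1 library and 42.4% in the control, and in the last 100 bases it was 30.3 and 29.6%. Low promoters had 15.7 and 15.6% at the far end and 4.02 and 3.71% in the last 100 bases. Intermediate promoters had 46.0% in the Mdivi-1 library and 45.6% in the control at the far end, against 36.8 and 35.9% next to the start. High promoters showed no such slope, with 89.2 and 88.5% at the far end and 90.3 and 89.6% at the start. The classes rest on the mean level of these same CpGs, so a high promoter could hold few low CpGs at any distance. The lack of a slope in high promoters is thus in part set by the sorting. Within the same promoters, 795 had at least 3 CpGs within 200 bases of the start and 3 from 500 to 1000 bases before it. The near CpGs were lower than the far ones in 504 of these promoters and higher in 291, by at least 20 points in 241 and 97. Their medians were 18.9% near and 39.1% far in the Mdivi-1 library, and 17.8 and 38.1% in the control.

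**Figure D3:**
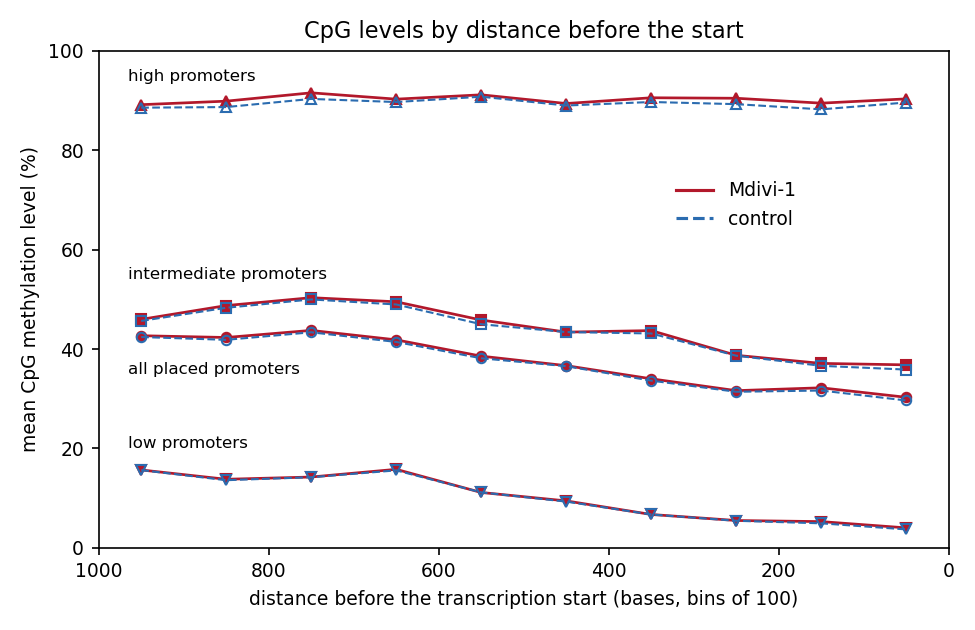
Mean CpG methylation level (%) in bins of 100 bases against the distance before the transcription start, for all placed promoters and for those low, intermediate and high, with Mdivi-1 as solid red and control as dashed blue lines. The line of all placed promoters ends at 30.3% in the Mdivi-1 library and 29.6% in the control, and the line of high promoters stays near 90% throughout. The classes were set by the mean level of each promoter in the same data.

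The level of a promoter went with the gene body that holds it and with its surroundings. The 1605 promoters lying inside another gene had medians of 87.8% in the Mdivi-1 library and 86.4% in the control, with 908 of them high. The 5096 promoters whose CpGs lay upstream of genes or between them had medians of 27.1 and 26.8%, with 2166 low. Pseudogenes, which descend from copies of other genes, stood at medians of 65.6% in the Mdivi-1 library and 64.6% in the control over 1654 promoters. Protein-coding genes stood at 29.3 and 29.2% over 4270 promoters. Pseudogenes inside another gene, 33.8% of them, had medians of 91.6 and 90.2%, and the others 47.4 and 46.2%. The CpGs 2 to 50 kb away could be averaged for 6204 promoters, and across these promoters, which are not independent replicates, their level had a correlation of 0.618 with that of the promoter (Spearman's rho 0.605). Where the surroundings stood under 20%, the median promoter stood at 5.99% in the Mdivi-1 library and 6.13% in the control. Where they stood at 80% or more it stood at 87.6 and 86.3%. At least 20 points below their surroundings stood 1632 promoters (26.3%), and 766 (12.3%) stood as far above. The number of measured CpGs per kilobase, by contrast, had a rank correlation of 0.00265 with the level over 8539 promoters spanning at most 3000 bases. Promoters on chromosome 13 were low in 21.8% of cases and those on chromosome 19 in 53.3%, the extremes of the 22 autosomes.

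Genes of catecholamine and chromaffin cells, the lineage of neuroblastoma, were spread over the whole scale. Of 24 listed genes annotated to a promoter, 9 had one outside islands. DBH stood lowest, at 1.57% in the Mdivi-1 library and 1.23% in the control over 25 CpGs. The neuropeptide gene VIP stood at 14.5 and 13.8%, and SCG2, a granin of secretory granules, at 18.1 and 17.6%. SCG2 joined an unmethylated stretch to a methylated one, since its first 7 CpGs along the chromosome stayed at or under 3.23% in both libraries and its last pair stood between 87.0 and 89.4%. TH, the rate-limiting enzyme of catecholamine synthesis, stood at 54.5% in the Mdivi-1 library and 53.7% in the control over 30 CpGs. Within TH the CpGs ranged from 0.00 to 100% in the Mdivi-1 library and from 4.0 to 100% in the control. DDC, the enzyme that follows TH, stood at 57.8 and 56.0%, a mean over unlike stretches. Its CpGs at chr7:50628823-50629246 (hg19) stayed at or under 5.0% in both libraries. The other DDC CpGs stood between 11.4 and 100% in the Mdivi-1 library and between 38.2 and 100% in the control. SLC6A2, the noradrenaline transporter, stood at 91.1% in the Mdivi-1 library and 89.8% in the control. Each of the 9 genes differed by less than 4 points between the libraries, and 8 were higher and 1 lower in the Mdivi-1 library, beside 5382 higher and 3714 lower of all 9124 promoters. With pooled reads SLC18A1, a vesicular transporter of monoamines, differed by 7.88 points and SCG2 by 4.63, while TH, at -2.96, and DDC, at -1.88, were lower. After thinning VIP, at -0.54, and SCG2, at -0.25, were lower too.

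Neuronal genes with many CpGs outside islands included low ones. SYT1, a calcium sensor of synaptic vesicles, stood at 3.40% in the Mdivi-1 library and 3.39% in the control over 51 CpGs. ELAVL4, a neuronal RNA-binding protein, stood at 8.41% in both over 42 CpGs. Of all 10 measured genes of the neuronal cytoskeleton and synapse 5 were low, 3 intermediate and 2 high. Mesenchymal and fibroblast genes held both ends of the scale, with the matrix gene POSTN at 0.575% in the Mdivi-1 library and 2.80% in the control and the collagen gene COL1A2 at 95.5 and 94.5% over 43 CpGs. Glial and Schwann genes stood mostly between, with MBP, a myelin protein, at 30.9 and 27.9% and GFAP, the astrocyte filament, at 61.5 and 55.9%. All 6 of them were higher in the Mdivi-1 library, beside 59.0% of all members, by a median of 2.86 points, or 0.706 with pooled reads. Other lists leaned the other way. Of 3 adrenergic neuroblastoma regulators 0 were higher and 3 lower in the Mdivi-1 library, with a median difference of -1.07 points. Of 8 genes of antigen presentation 1 was higher and 7 lower, and of 5 epithelial genes 1 was higher and 4 lower.

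Large families used in other tissues had low levels. Olfactory receptors had medians of 2.49% in the Mdivi-1 library and 2.39% in the control, and 168 of 199 were low. Keratin-associated and cornified envelope genes of hair and skin had 2.69 and 2.71%, with 88 of 111 low, and keratins 5.0 and 5.70%, with 33 of 36 low. Defensins and other antimicrobial peptides had medians of 4.68 and 5.43%, with 32 of 43 low. Leukocyte receptors had 8.0% in the Mdivi-1 library and 7.12% in the control, with 77 of 118 low, and cytochrome P450 genes 7.57 and 9.64%, with 15 of 24 low. At 20 reads 17 P450 genes were left, with a median level over both libraries of 15.8% in place of 8.03%, and their median difference was 0.557 points in place of -0.539. Segments of immunoglobulins and T cell receptors, a list added once levels had been seen, had 6.34 and 6.55%, with 216 of 283 low. These shares stand beside 34.6% of all members. Members of such families are near copies of each other, and no source used here says how reads that fit several copies were aligned. The surroundings of these families were low as well. Around 144 of the olfactory receptors the median was 12.2% in the Mdivi-1 library and 11.5% in the control. Around 94 of the keratin-associated and cornified envelope genes it was 7.14 and 7.35%.

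Not every member of these families was low. Of the olfactory receptors 30 were intermediate and 1 high, of the keratin-associated and cornified envelope genes 22 and 1, and of the leukocyte receptors 37 and 4. The olfactory receptor OR2S2 stood at 43.8% in the Mdivi-1 library and 53.7% in the control over 6 CpGs, and the hair keratin-associated gene KRTAP10-6 at 34.4 and 41.7% over 41 CpGs. KRTAP10-2 nearby on chromosome 21 stood at 6.05 and 7.32%. Taste and vomeronasal receptors, in a list that also holds trace amine receptors, were low in 14 of 27 cases. In this list TAS2R3, a bitter receptor, stood at 96.6% in the Mdivi-1 library and 95.5% in the control, while TAAR6, a trace amine receptor, stood at 3.62 and 6.18%.

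Genes of other differentiated tissues stood higher. Blood and immune cell genes had medians of 17.9% in the Mdivi-1 library and 15.8% in the control, and 14 of 26 were low. HBG2, a fetal globin, stood at 0.667 and 0.358%, while CD3G, a subunit of the T cell receptor complex, stood at 28.3 and 29.7%. Chemokines had medians of 17.4 and 15.9%, liver secretory genes 31.1 and 31.2%, muscle and heart genes 42.9 and 42.5%, and pancreas and gut enzymes 44.7 and 44.3%. Solute carriers, transporters of many substrates, had 47.5% in the Mdivi-1 library and 45.2% in the control. Lens crystallins stood highest of the tissue lists, with medians of 72.5 and 74.9% and 0 of 11 low. Among them CRYAB, a small heat shock protein also found outside the lens, stood at 72.5 and 73.2% over 59 CpGs.

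Secreted signals and their receptors were spread widely. Interferons and interleukins had medians of 31.3% in the Mdivi-1 library and 31.6% in the control, with 11 of 30 low. IL37, an anti-inflammatory cytokine, stood at 4.80 and 4.83% over 29 CpGs, while IL17B stood at 68.5 and 70.5% over 47. Among chemokines CCL11, which attracts eosinophils, stood at 1.18 and 0.623%, and CCL24, which does so too, at 30.3 and 31.8%. Among leukocyte receptors the chemokine receptor CCR9 stood at 76.8% in the Mdivi-1 library and 74.3% in the control over 32 CpGs, and LAIR1, an inhibitory collagen receptor, at 17.4 and 14.8% over 41. Of the 8 genes of antigen presentation HLA-DPA1 stood at 1.21 and 0.210% and CD74, the invariant chain, at 63.9 and 65.0%.

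Serpins, mostly protease inhibitors of plasma, had medians of 14.6% in the Mdivi-1 library and 13.2% in the control, with 16 of 24 low. SERPINA1, alpha-1 antitrypsin of the liver, stood at 17.3 and 18.3% over 44 CpGs, and SERPING1, the inhibitor of complement C1, at 71.0 and 67.6%. Potassium channel genes had medians of 23.2 and 23.1%, with KCNH7 at 4.65% in the Mdivi-1 library and 3.53% in the control over 37 CpGs and the channel-binding KCNIP4 at 27.7 and 29.9% over 82. The 67 zinc finger genes had 22.2 and 18.5%. Surroundings could be averaged for 34 of them and stood at 55.3 and 55.1%. Genes of the germ line and testis had 42.4 and 41.7%, among them LDHC, the lactate dehydrogenase of sperm, at 92.9% in the Mdivi-1 library and 91.9% in the control and PGK2, the phosphoglycerate kinase of sperm, at 2.97 and 3.69%. UGT1A8 and UGT1A1, glucuronidating enzymes with separate first exons in a shared locus, stood at 1.61 and 1.3% and at 48.6 and 49.1%.

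The intermediate promoters with most CpGs lay at several levels. Members with at least 10 CpGs were intermediate in 46.7% of cases and high in 20.6%, beside 38.2 and 27.2% of all members. AGPAT1, an acyltransferase of phospholipid synthesis, held 92 CpGs at 24% in the Mdivi-1 library and 23.9% in the control, and SORBS2, an adaptor protein of muscle and neurons, 90 CpGs at 70.1 and 69.1%. The mesenchymal homeobox gene MEOX2 held 70 CpGs at 43.0 and 38.9%, and the troponin gene TNNI2 71 CpGs at 37.9 and 38.3%.

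Noncoding genes split by kind. MicroRNA genes had medians of 80.5% in the Mdivi-1 library and 79.1% in the control, with 214 of 426 high, and 48.4% of them lay inside another gene. Those inside another gene had 90% in the Mdivi-1 library and 89% in the control, and the others 71.2 and 69.8%. Small nucleolar RNA genes, which guide chemical modification of ribosomal RNA, had 85.0 and 85.8%, with 121 of 210 high. One of them, SNORD18A, stood at 2.64 and 2.59% over 49 CpGs, and RPL4, its host gene, at 1.51 and 1.07%. Long intergenic noncoding RNA genes had medians of 31.7 and 32.1%, and antisense RNA genes 60.1 and 59.3%. Transfer RNA genes, also a list added once levels had been seen, had 8.72% in the Mdivi-1 library and 8.58% in the control, with 58 of 87 low. Their surroundings, averaged for 83 of the 87, stood at medians of 49.8 and 48.6%, well above the promoters. The 5 ribosomal protein genes measured outside islands had medians of 11.1 and 11.6%, and surroundings, averaged for 4 of them, stood at 92.8 and 92.5%.

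**Figure D4:**
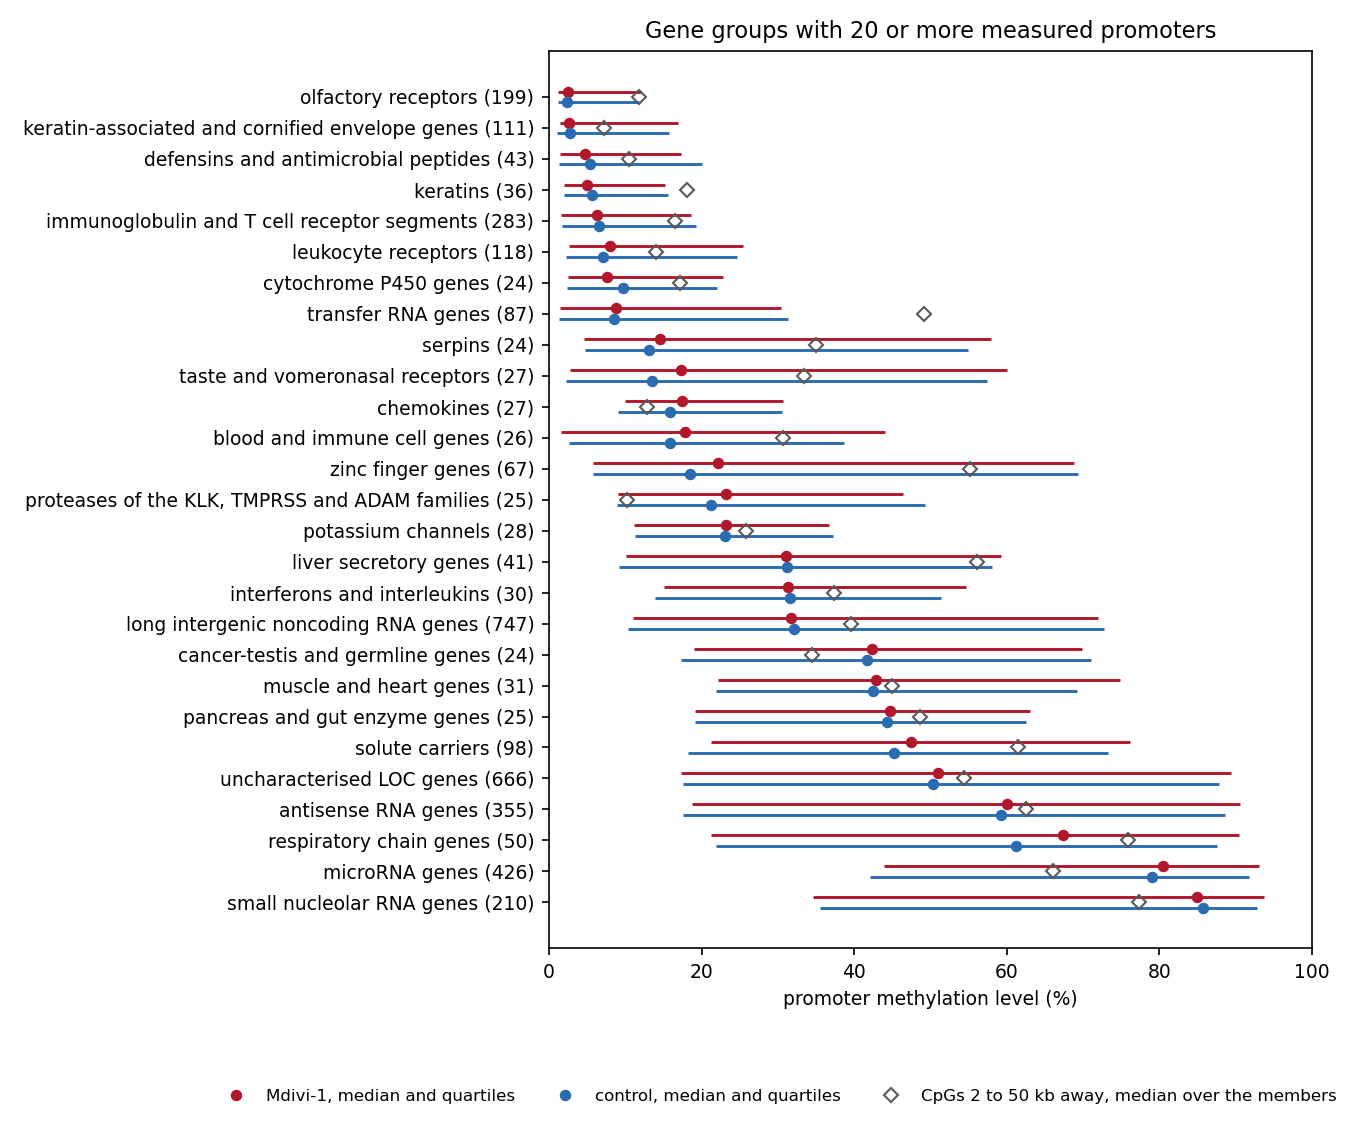
Promoter methylation level (%) by gene group, for groups with at least 20 measured promoters (number in brackets), with points for the medians and lines for the quartiles over promoters in the Mdivi-1 library (red) and the control (blue). Open diamonds give the median level of CpGs 2 to 50 kb away, averaged over both libraries, for the members that had enough such CpGs. Olfactory receptors head the figure at 2.49% in the Mdivi-1 library and 2.39% in the control, and small nucleolar RNA genes close it at 85.0 and 85.8%.

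DNM1L, which encodes the fission GTPase that Mdivi-1 was described to inhibit, had no measured promoter CpG outside islands, shores and shelves and is not a member. Of 35 annotated genes of fission, fusion and mitophagy 4 were members. PHB, an inner membrane scaffold protein, stood at 3.86% in the Mdivi-1 library and 5.52% in the control over 27 CpGs, and USP30, a deubiquitinase that opposes mitophagy, at 30% in the Mdivi-1 library and 28.6% in the control. Respiratory chain genes and their pseudogenes had medians of 67.4% in the Mdivi-1 library and 61.2% in the control over 50 promoters, of 160 annotated. Their median difference was 0.243 points, and 27 were higher and 23 lower in the Mdivi-1 library. Of the stress response and antioxidant list 3 genes were members. SOD3, the extracellular superoxide dismutase, stood at 21.9% in the Mdivi-1 library and 17.7% in the control, ATF3, a stress-induced transcription factor, at 86.9 and 82.3%, and GPX2, a glutathione peroxidase, at 96.3 and 93.3%. Outside that list, the solute carrier gene SLC7A11, the cystine and glutamate exchanger, stood at 52.9% in the Mdivi-1 library and 37% in the control. It held 4 CpGs, fewer than the rule of size described below asks for. The 98 solute carriers had a median difference of 0.586 points, with 60 higher and 38 lower in the Mdivi-1 library.

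The lowest promoters of genes with no island, shore or shelf CpG had hardly a methylated read. AMBN, the enamel protein ameloblastin, had none among 121 Mdivi-1 reads and 90 control reads over 5 CpGs, which allows levels of up to 2.48 and 3.33%. LNCNEF, a noncoding RNA gene, had none among 242 and 155 reads, which allows 1.24 and 1.94%. The immunoglobulin segment IGKV1-12 had none among 216 and 167. Some of its positions lie 1 base apart and may be both strands of the same CpG, so it may hold fewer CpGs than counted. Read totals here are summed over CpGs, and a read over several CpGs counts at each. The limits hold for independent reads and are too low where CpGs share reads. The AMBN CpGs lie within 162 bases. KRT20, an intestinal keratin, stood at 0.631% in the Mdivi-1 library and had no methylated read among 208 in the control. RANBP6 had no methylated read among 119 in the Mdivi-1 library, and in the control its CpG 6 bases before the start stood at 4.17% of 24 reads. Over all members 80 promoters had no methylated read in the Mdivi-1 library and 138 in the control, of which 23 were the same, at a depth that was lower in the control.

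By the authors' annotation of single CpGs, the 44137 upstream of a gene, 45.8% of member CpGs, averaged 35.1% in the Mdivi-1 library and 34.7% in the control. The 28097 in introns averaged 54 and 53.3%, and the 3326 in coding exons 68.7 and 68.1%, since a promoter of one gene can overlap another gene or a further transcript.

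Some genes had one start in an island and another outside. In 575 genes with at least 5 CpGs of each kind, the CpGs outside were higher than the island CpGs in 481 and lower in 94. The median levels outside were 63.1% in the Mdivi-1 library and 61.8% in the control, against 1.90 and 1.84% in the islands. A low island with high CpGs outside was seen in 192 genes and the reverse in 6. NXN, nucleoredoxin, had the widest gap, with 96.6% in the Mdivi-1 library and 96.3% in the control over 11 CpGs outside. Its 11 island CpGs stood at 0.00 and 0.699%. No methylated read among 151 there allows up to 1.99% in the Mdivi-1 library if every CpG is read independently, and more if reads are shared. The NXN CpGs outside and in the island lay at chr17:767355-767434 and chr17:883287-883381 (hg19), so they belong to different starts of the gene. ITGB1, the integrin beta-1 chain, stood at 97.8 and 94.7% outside and 0.760 and 0.967% in its island.

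The comparison of Mdivi-1 with control asked whether methylation of these promoters differed after exposure. The mean difference, Mdivi-1 minus control, was 0.542 percentage points with a counting error of 0.0290 for independent reads. Reads shared between CpGs would make this error larger. The median difference was 0.454 with quartiles of -0.969 and 2.08. Of all members 5382 were higher in the Mdivi-1 library, 3714 lower and 28 equal. Differences stayed within 5 points in 8126 promoters (89.1%) and within 1 point in 3190 (35%). Their SD of 3.20 points lay between the 2.77 points that counting gives if every CpG is read independently and the 7.84 points if a promoter's CpGs share all reads. All 22 autosomes had a higher mean in the Mdivi-1 library, by 0.0375 points on chromosome 19 up to 0.829 on chromosome 13. Centred on the median of all autosomal promoters the mean difference was 0.331. That median also covers island promoters, which mostly stood low and had a median difference of 0.0528 points. The Mdivi-1 library was also the deeper one, and with 1 library per group library and exposure cannot be told apart.

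The difference was larger at methylated promoters. Low members differed by a mean of 0.0947 points, intermediate ones by 0.558 and high ones by 1.09. Classed by the Mdivi-1 library alone the means were -0.0370, 0.560 and 1.24, and classed by the control alone 0.244, 0.562 and 0.898. Members at 95 to 100% in the control differed by -1.25 points. Members at 80 to under 90% had the highest mean, 1.20 points with a counting error of 0.108, at 86.4% in the Mdivi-1 library and 85.2% in the control. Shelf promoters differed by 0.616 points, shore promoters by 0.373 and island promoters by 0.120. Islands were low in 80.7% of promoters and shores in 41.6%, so levels had to be matched. At the same levels the members exceeded island promoters by 0.202 points (95% counting interval ± 0.0941 for independent reads). They exceeded shore promoters by 0.0701 (± 0.0707), an interval that reaches 0, and by 0.159 when promoters were matched on the control level alone. A test over libraries is not possible for these gaps. Their intervals, and the counting error of the bin above, take every CpG as read independently. Shared reads would widen both intervals, by an amount that was not computed, so neither gap is set apart from 0 by them. Neighbouring member CpGs less than 50 bases apart had a correlation of 0.886 in level and 0.216 in difference, over 57090 pairs that often share reads. From 50 to 200 bases apart the correlations were 0.728 and 0.0282.

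**Figure D5:**
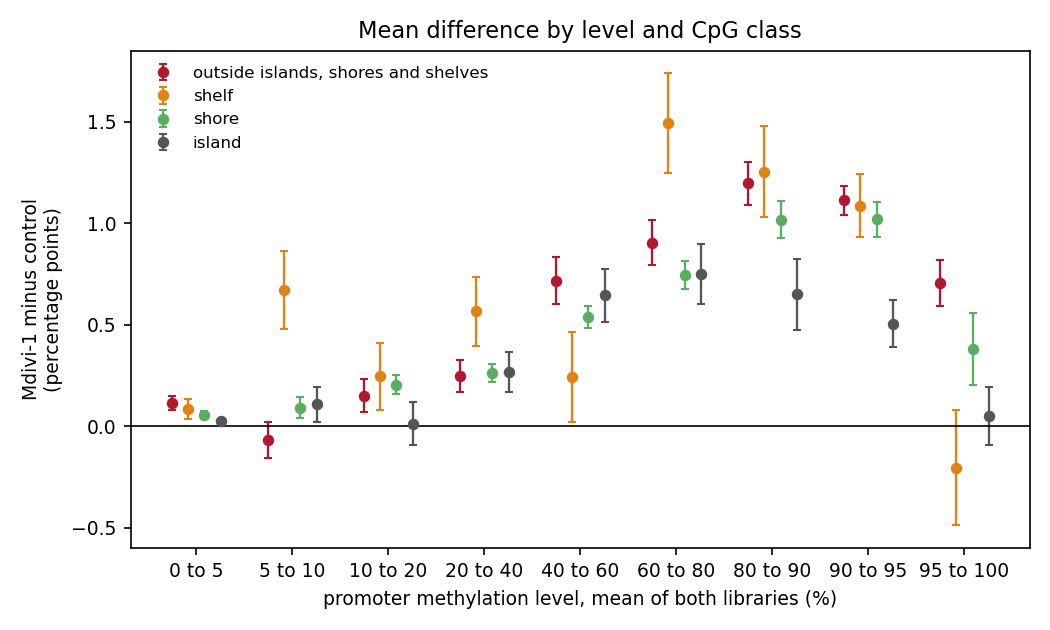
Mean difference, Mdivi-1 minus control, in percentage points, by bin of promoter methylation level (mean of both libraries, %), for promoters outside islands, shores and shelves (red), in shelves (orange), in shores (green) and in islands (grey), with bars giving 1 counting error on either side. The counting error takes every CpG as read independently. Promoters outside islands reach 1.20 points at 80 to 90%, where island promoters stand at 0.650.

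Large differences were rare. A rule of size asked for a shift of 10 points or more over 5 or more CpGs, 80% of which shift the same way. It was met by 14 members higher and 11 lower in the Mdivi-1 library of 6878 with 5 CpGs (0.204 and 0.160%). Over all autosomal promoters it was met by 0.128% in the higher and 0.115% in the lower direction. There a gene's CpGs of every class were joined, so these shares are not directly comparable with those of the members. Counted by class in both directions together, the rule was met by 0.363% of the members, 0.637% of shelf, 0.380% of shore and 0.480% of island promoters. With 20 reads asked of each CpG, 4 members were higher and 9 lower. After thinning to equal coverage 9 were higher and 12 lower, and after centring 13 and 14, so the excess of higher members does not hold under these settings.

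Members higher in the Mdivi-1 library are given first. BDKRB1, the bradykinin receptor induced by injury, stood at 64.2% in the Mdivi-1 library and 51.6% in the control over 8 CpGs at chr14:96721373-96722483 (hg19). Its counting error was 5.02 points for independent reads and 15.8 if all reads are shared, so the difference of 12.6 points is not larger than the second. SCN11A, a sodium channel of pain-sensing neurons, stood at 46.8 and 35.7% over 5 intronic CpGs at chr3:38992112-38992448, all of them higher, and with pooled reads its difference was 9.98 points. BTLA, an inhibitory receptor of lymphocytes, stood at 34.2% in the Mdivi-1 library and 23.4% in the control over 6 CpGs at chr3:112218409-112219229, with a difference of 10.8 points that was 9.72 at 20 reads. GFI1B stood at 25.8 and 14.9% over 10 CpGs at chr9:135852938-135854020, and 8 of the 10 were higher. MGST2, a glutathione S-transferase of membranes, stood at 60.4 and 49.7% over 9 CpGs, and its difference was 6.21 points with pooled reads in place of 10.6. The alanine transfer RNA gene TRA-AGC5-1 stood at 44.2% in the Mdivi-1 library and 34.1% in the control over 17 CpGs at chr6:28677097-28677721, of which 15 were higher. It had the most CpGs of the 25, and at 20 reads its difference was 5.68 points in place of 10.2. The antisense genes XIRP2-AS1, at 73.0 and 60.2%, and ITPRIP-AS1, at 71.1 and 59.5%, also met the rule. At 20 reads their differences were 9.40 and 6.86 points, in place of 12.8 and 11.5, and with pooled reads that of XIRP2-AS1 was 8.44.

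Among members lower in the Mdivi-1 library, BFSP1, the beaded filament protein filensin of the lens, stood at 43.0% in the Mdivi-1 library and 61.3% in the control over 5 intronic CpGs at chr20:17539746-17540976 (hg19), all of them lower. One of these CpGs had 28.6% of 21 Mdivi-1 reads and 70% of 10 control reads, and without the CpGs under 20 reads the difference was -12.5 points in place of -18.3. DIO2, the deiodinase that activates thyroid hormone, stood at 44.1 and 56.4% over 5 CpGs at a mean of 74.0 and 57.0 reads, all lower, a difference of -12.4 points that was -9.65 with pooled reads. Its counting error was 4.25 points for independent reads and 8.81 for shared reads. The DIO2 CpGs lie at chr14:80679453-80697778 (hg19), the last 18325 bases from the first and the others within 549 bases of it. With spans of at most 3000 bases DIO2 drops out. NTM, the adhesion protein neurotrimin, stood at 22.4% in the Mdivi-1 library and 35% in the control over 7 CpGs at chr11:131239031-131240414. Within NTM the gap was widest at CpGs of few reads, such as one at 36.4% of 11 Mdivi-1 reads and 68.8% of 16 control reads, and at 20 reads it was -1.50 points. TMPRSS9, a membrane serine protease, stood at 25.5 and 37.7%, a difference of -12.1 points that was -6.05 with pooled reads. LDLRAD4 stood at 24 and 36.0% over 9 CpGs at chr18:13611340-13611533, of which 8 were lower. At 20 reads the LDLRAD4 difference was -12.2 points over 5 CpGs in place of -12.0 over 9. These CpGs lie close enough to share reads, so the 2 values are no independent checks. Counting errors for shared reads are given here for BDKRB1 and DIO2 alone. Differences of the other named members are therefore not set against them. The noncoding RNA gene LINC01994 stood at 46.9% in the Mdivi-1 library and 60.2% in the control. IL6RP1, a pseudogene of an interleukin receptor, stood at 18.6 and 28.9% over 10 CpGs, of which 9 were lower, a difference of -10.3 points that was -5.58 at 20 reads.

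One member CpG passed Fisher's exact test with Benjamini-Hochberg adjustment over 2523693 CpGs and a difference of 20 points, where 16 of all CpGs did (0.000634%). It lies in an intron of SH3BGR, an SH3-domain-binding glutamate-rich protein gene, at chr21:40823723 (hg19). There 32 of 73 Mdivi-1 reads (43.8%) and 33 of 34 control reads (97.1%) were methylated, with an adjusted p of 0.00387. The test compares these libraries and not the conditions. Thinned to equal coverage, 0 member CpGs passed. An unadjusted two-sided p under 0.05 was seen in 2280 member CpGs (2.37%), against 2.02% of all CpGs.

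Promoters close to the limits of the choice had like values. The 1192 members with exactly 3 CpGs stood at a mean of 47.9% in the Mdivi-1 library and 47.5% in the control, and the 1339 gene promoters left out with 2 CpGs at 47.8 and 47.4%. The 1394 CpGs whose smaller coverage was 10 reads averaged 40.3 and 39.8%, and the 1226 left out at 9 reads 41.8 and 40.9%.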

How the data were processed

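Genomic DNA of SH-SY5Y cells was captured with the SureSelectXT Methyl-Seq kit and sequenced on a NovaSeq instrument, per the labels' protocols. Per the submitters' processing notes, BSMAP was used and the build is hg19. The deposited table holds 2773807 positions, each with a methylated fraction and a coverage per library and with annotation to genes and CpG classes. Deposited coverage was treated as estimated counts, since it is not whole at 10751 positions.

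Control fractions corresponded to whole reads at 33.3% of positions as deposited and at 100% once the control coverage was scaled up by 37 over 30, the median coverages of the libraries, within a tolerance of 1e-06. This rescaling was inferred from the values, since no source used here mentions it. Whole methylated reads were recovered, and 10795 positions (0.389%) were left out. A CpG needed 10 reads or more in each library. A promoter's level is the mean percentage over its CpGs, and each difference is the Mdivi-1 level less the control level, in points. Fisher exact tests (two-sided) on reads of each CpG were adjusted over the whole table. Wilson and exact Clopper-Pearson intervals are at 95%. The level that no methylated read allows is 3 reads of the total, summed over CpGs as if their reads were independent. Counting errors were computed for independent CpGs and for reads shared by all CpGs of a promoter. Surroundings are autosomal CpGs 2 to 50 kb away, at least 10 of them. A promoter lies inside another gene where at least 80% of its CpGs carry such an annotation.

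RefSeq windows (GRCh38.p14) were matched by symbol, and gene kinds by symbol for 8654 members. CpGs were placed on a window where at least 4 measured CpGs fell on its CpGs at one shift that led the next by at least 2. Gene lists (38, and 2 added after levels were seen) came from families and tissues by symbol, and the members and lists were chosen with earlier results of these data known. Named are the 10 largest gains and losses by the rule of size, the 15 lowest promoters, and in each list the members with most CpGs, the lowest level or the largest difference. The catecholamine list, the widest gaps between island and outside CpGs and the called CpG are named too; BTLA, MGST2, TRA-AGC5-1 and IL6RP1 met the rule of size outside these limits and were chosen after their values were seen. Some genes that the rule names are not reported here. Alternatives were other coverage minimums, pooled reads, deposited fractions, thinning, other limits and CpG numbers, and centring; inclusion of positions of fractional coverage was added after seeing the data. Scripts were tested on simulated data. Tools were SciPy 1.17.1, pandas 2.3.3 and NumPy 2.4.6 under Python 3.11.15, Numba 0.67.0 for the Fisher tests, with figures by Matplotlib 3.10.9.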

Additional observations from a re-analysis of the deposited data

How the results depend on the processing

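The mean difference of 0.542 points stayed above 0 in every alternative run, from 0.331 when centred on the median of all autosomal promoters to 0.636 with the deposited fractions. The number meeting the rule of size was 25. It was 13 at 20 reads, 4 with at least 10 CpGs, 250 with a limit of 5 points, 4 with a limit of 15 points and 70 from 3 CpGs on, and between 20 and 35 in the other alternatives. The single called CpG was 0 after thinning. With limits of 10 and 90% the shares of low, intermediate and high promoters were 23.4, 59.0 and 17.6%, and with limits of 30 and 70% they were 44.1, 23.3 and 32.7%. With at least 10 CpGs they were 32.8, 46.7 and 20.6%, with at least 5 CpGs the intermediate and high shares were 41.0 and 25%, and without genes that also have island, shore or shelf CpGs the low and high shares were 36.3 and 25.9%. The excess over shore promoters of 0.0701 points was 0.159 when binned by the control level. Median levels of gene lists moved by up to 17.2 points at 20 reads, 6.07 with pooled reads and 0.367 with the deposited fractions. Of the 40 lists, 5 changed the sign of their median difference at 20 reads, 5 with pooled reads and 2 with the deposited fractions. No paired analysis was possible because each group holds 1 library. The causes of these shifts were not tested. Counting errors of single promoters had a root mean square of 2.77 points for independent reads and 7.84 for shared reads, so small differences of single promoters were within counting error. Of the members meeting the rule of size, 4 were higher and 9 lower at 20 reads, against 14 and 11.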
